A study of Homo sapiens with 24 samples.

Results

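Wild-type MLK4 was switched on in HCT15 cells and RNA levels were compared with and without it. HCT15 is a human colorectal cancer line whose own MLK4 carries a loss-of-function mutation per the labels, and all cells compared here share that background. An engineered derivative carried wild-type (WT) MLK4 under tetracycline control. It was sampled with a Tet tag in the title, which stands for 24 h of tetracycline, and without that tag, and the labels do not say what the untagged cells received. The 6 arrays with the titles of this derivative, 3 Tet and 3 untagged, were taken out of 24 in the series. They are numbered 1 to 3 on each side, and the numbers join them into 3 pairs. The other HCT15 derivative, in which the mutant form Y330H was induced in the same way on 6 further arrays, is the study's control. Wild-type MLK4 was also induced in HT115, another colorectal line with an MLK4 loss-of-function mutation. Another HT115 derivative, in which the mutant form E314K was induced, enters the fit, but its response is not described here. The labels do not say whether a derivative is a single clone, nor whether the replicates were separate cultures, and the p-values therefore speak only to variation among these arrays, part of which may be technical.

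MLK4 (gene symbol MAP3K21) belongs to the mixed-lineage kinases. Kinases of this family phosphorylate the MAP kinase kinases that activate JNK, and JNK in turn phosphorylates JUN, a subunit of the AP-1 transcription factor. AP-1 is built from JUN, FOS, ATF and MAF proteins and acts on genes of stress signalling, adhesion, matrix turnover and epithelial state. The study's title names p21 (gene CDKN1A) and p15 (gene CDKN2B), which block cyclin-dependent kinases, downstream of this cascade.

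The RNA levels are log2 signals of Affymetrix U133 Plus 2.0 arrays. A difference of 1 is a 2-fold change. The medians of the 18 arrays that hold HCT15 and the HT115 E314K derivative lay on 1 scale and those of the 6 HT115 WT arrays on a lower one, so that changes, but not levels, were set side by side with HT115 WT. The 15 colon epithelial markers averaged 8.61 to 9.38 per array in untagged and 8.87 to 9.24 in Tet arrays. The 13 fibroblast markers averaged 4.97 to 5.31, the 11 leukocyte markers 5.54 to 5.77 and the 10 endothelial markers 5.69 to 5.94 over the same 6 arrays. Of these 3 foreign lists only the endothelial adhesion gene ESAM was called (a rise of 0.38). The 2 arrays numbered 1 stood apart in a measure of RNA quality: the 3' minus 5' signal of ACTB was 1.17 untagged and 0.93 with Tet, against 0.35 to 0.53 on the other 4 arrays. Its part in the results was not tested. MAP3K21 itself read 10.9, 10.64 and 10.79 in untagged arrays 1, 2 and 3 and 10.78, 10.36 and 10.73 with Tet. These levels overlap, and the change of -0.15 (SE 0.11, adjusted p = 0.494) did not pass the test. It rests on 1 probe set, and where that set lies relative to the induced construct was not analysed here, so it does not check the labels.

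Many genes differed by small amounts between the Tet and untagged arrays of the WT derivative. Of 19775 genes tested, 620 rose (3.14%) and 337 fell (1.7%) at an adjusted p under 0.05 in a limma fit with the pairs as a replicate block. Each of the 957 called genes moved the same way in all 3 pairs. Only 76 of the rises and 34 of the falls reached 2-fold. A further 163 rises and 91 falls lay between 1.5-fold and 2-fold, and 381 rises and 212 falls were smaller than 1.5-fold. The modest changes, those under 2-fold, thus made up 847 of 957. The called genes were of middle to high level, with median untagged levels of 8.73 for rises and 9.0 for falls against 7.39 over all genes.

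The count depends on the pairing and on the arrays that share the estimate of spread. The same change counted without the replicate block gave 121 rises and 17 falls, all among the 957. With the 12 HCT15 arrays alone the paired fit gave 343 rises and 150 falls. With the 6 HCT15 WT arrays alone the paired fit gave 14 and 2, and JUN lost its call there. The SEs and p-values of the main fit thus draw on the pairs of all derivatives, and not on the spread of these 3 pairs alone. Leaving out the pair numbered 2 left 150 rises and 59 falls, leaving out number 1 left 288 and 113, and leaving out number 3 gave 507 and 394. All 957 kept their direction in each of these fits. That outcome was fixed in advance, because these fits average the same pair differences, which had 1 sign for each called gene. In the paired arrays, deviations from the group mean correlated between same-numbered arrays at r of 0.581, 0.488 and 0.416 across genes, and at most 0.077 between arrays of different number. Deviations of 3 arrays from their mean sum to 0. A positive value for same numbers thus pushes those for different numbers down, and the contrast is partly built in.

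The pairs themselves responded unequally. Across 19775 genes, which are not independent replicates, the Tet minus untagged differences correlated at r = 0.520 between pairs 1 and 2, 0.421 between 2 and 3 and 0.195 between 1 and 3. In the Y330H derivative the same correlations were 0.121, -0.047 and 0.042. Among the rises the median difference was 0.54 in pair 1, 0.59 in pair 2 and 0.43 in pair 3. Among the falls it was -0.56, -0.65 and -0.35. Pair 3 held the smallest of the 3 differences in 369 of 620 rises and 242 of 337 falls.

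In total 3683 genes (18.6%) were higher in all 3 pairs and 4217 (21.3%) were lower in all 3, called or not. For Y330H these shares were 9.64% and 17.1%. A difference of at least 1.5-fold in every one of the 3 pairs was seen for 106 genes upward and 40 downward with WT, and for 0 and 0 with Y330H. Agreement in sign alone is therefore frequent in these arrays, and the size asked of each pair separated the inductions.

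**Figure D1:**
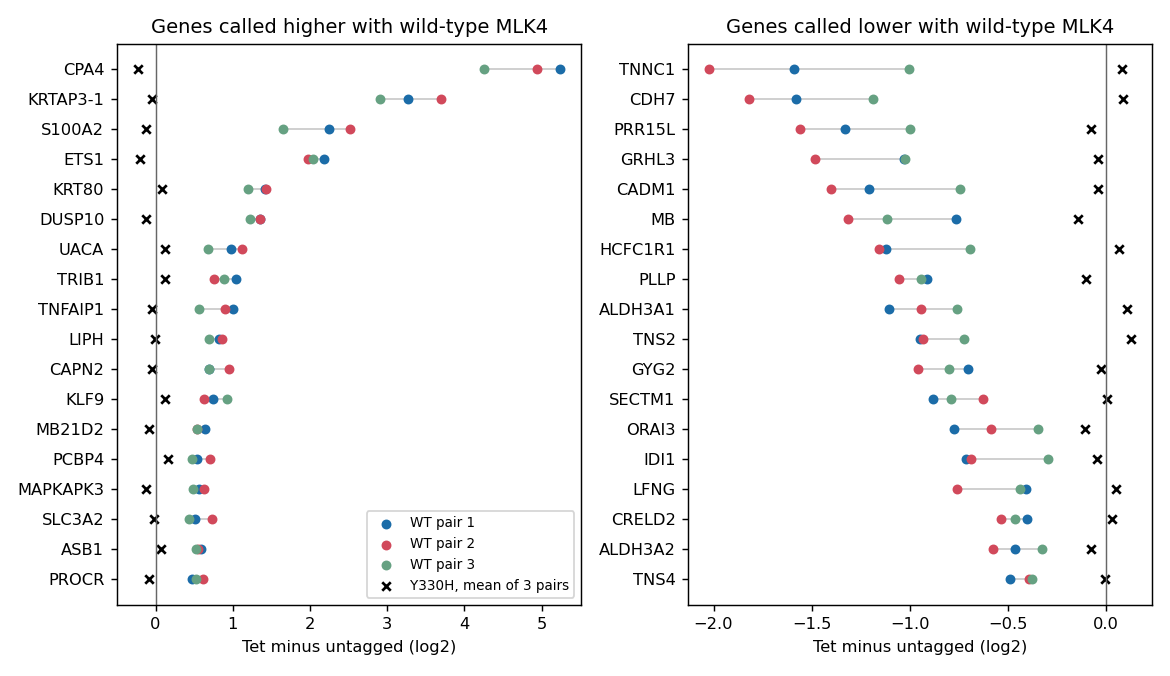
Tet minus untagged difference (log2) in each HCT15 WT pair (coloured points) for the 6 genes with the smallest p in each of 3 size ranges, rises on the left and falls on the right; crosses give the mean of the 3 Y330H pairs. Every coloured point lies on the called side of 0, and the crosses lie between -0.23 and 0.16.

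The largest rises with the smallest p included keratin-related, secreted and signalling genes. KRTAP3-1, a hair keratin-associated protein whose near-identical relatives can share probe signal, read 8.62, 8.66 and 8.07 untagged and 11.89, 12.36 and 10.98 with Tet. The transcription factor ETS1 read 6.45, 5.06 and 5.43 untagged and 8.63, 7.03 and 7.48 with Tet. Its groups do not overlap, although the array numbered 1 was the higher on each side, and the 3 differences were nearly equal (2.18, 1.97 and 2.04). KRT80, a keratin of spreading epithelia, had a wide base level of 6.64, 7.17 and 7.96 and rose in each pair to 8.05, 8.6 and 9.16 (change 1.35, SE 0.08, adjusted p = 9.18e-06). Its groups do not overlap, although the untagged array 3 lay just below the Tet array 1. Without the block its adjusted p was 0.0198, so the call stayed. CPA4 (4.81), S100A2 (2.14) and the JNK phosphatase DUSP10 (1.31) completed the 6 genes.

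The falls of at least 2-fold held tissue-specific and epithelial genes. PRR15L read 6.68, 7.48 and 8.58 untagged and 5.35, 5.92 and 7.58 with Tet, a fall of 1.3 (SE 0.09) with overlapping groups. TNNC1, the cardiac troponin C, went from 10.91, 12.39 and 12.2 to 9.32, 10.37 and 11.2, and MB, the oxygen carrier myoglobin, fell by 1.07. These are muscle genes by name, but TNNC1 had a high signal before induction, and the groups of each overlap. The cadherin CDH7 fell by 1.53, the adhesion molecule CADM1 by 1.12 and GRHL3, a transcription factor of epithelial barrier formation, by 1.18. For these 6 genes the adjusted p without the block lay between 0.0696 and 0.666, so that none was called there.

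Rises between 1.5-fold and 2-fold held signalling and proteolysis genes. TRIB1, a pseudokinase that scaffolds protein degradation, read 8.5, 8.77 and 8.26 untagged and 9.54, 9.52 and 9.15 with Tet (change 0.89, SE 0.08). UACA rose by 0.93, from 9.39, 8.88 and 9.31 to 10.38, 10.0 and 9.99. The other UACA probe sets, of low signal, had mean differences of 0.32, -0.04 and -0.06, so its rise rests on the tested set. The calcium-activated protease subunit CAPN2 rose by 0.78, with differences of 0.70, 0.95 and 0.69. TNFAIP1, an adaptor of a ubiquitin ligase, rose by 0.82. The groups do not overlap for these 4 genes, and they were called with and without the block (adjusted p without it between 0.000307 and 0.000855). The lipase LIPH (0.79) and the transcription factor KLF9 (0.76) varied more between numbers and were called only with the block, at 0.388 and 0.219 without it.

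Falls of that size included metabolic enzymes. ALDH3A1, an aldehyde dehydrogenase, fell by 0.94, from 8.29, 7.95 and 8.5 to 7.18, 7.01 and 7.74. GYG2, a glycogenin that primes glycogen synthesis, fell by 0.82. The membrane proteolipid PLLP fell by 0.97, the focal adhesion protein TNS2 by 0.87 and the secreted protein SECTM1 by 0.77. HCFC1R1 fell by 0.99 and was the only one of these 6 also called without the block (adjusted p = 0.0231).

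Below 1.5-fold the evenness of the pairs differed between genes. PROCR, the receptor of protein C, differed by 0.47, 0.61 and 0.53 with overlapping groups, and ASB1, a ubiquitin ligase subunit, by 0.59, 0.55 and 0.53. MAPKAPK3, a kinase that p38 activates, rose by 0.56 (SE 0.07), from 10.57, 10.27 and 10.34 to 11.13, 10.9 and 10.83. MB21D2 (0.57), the RNA-binding protein PCBP4 (0.57) and the amino acid transporter chain SLC3A2 (0.56) belong to the same range. Of the 6, MB21D2 and PCBP4 were called without the block. Among the falls, TNS4, which links integrins to the cytoskeleton, differed by -0.49, -0.39 and -0.37 and the fatty aldehyde dehydrogenase ALDH3A2 by -0.46, -0.57 and -0.33. Another TNS4 probe set differed by 0.04, 0.25 and -0.47, so the fall of TNS4 rests on the tested set. The Notch-modifying enzyme LFNG fell by 0.53, the ER protein CRELD2 by 0.47, the calcium channel ORAI3 by 0.57 and IDI1 of the sterol pathway by 0.56. The pairs were uneven for ORAI3 (-0.77, -0.59 and -0.35), IDI1 (-0.71, -0.69 and -0.30) and LFNG (-0.41, -0.76 and -0.44). A dimmer LFNG probe set had a mean difference of 0.08, so the fall of LFNG rests on the tested set. IDI1 was the only one of these 6 called without the block (adjusted p = 0.0408).

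AP-1 subunits rose with Tet, and few of the kinases above them were called. Of 17 measured JUN, FOS, ATF and MAF genes 8 rose and 0 fell, with a median change of 0.43 against -0.03 over all genes, and 14 were higher in all 3 pairs. Such lists were drawn up with earlier results of these data in view, so their counts are descriptions. Of the 12 members that earlier results had not singled out, 3 rose. JUN read 9.95, 10.1 and 10.23 untagged and 11.28, 11.09 and 11.05 with Tet, and every Tet array lay above every untagged one (change 1.04, SE 0.11, adjusted p = 0.000344). Its 3 other probe sets rose as well, by means of 1.23, 1.35 and 1.35. FOSL1, a FOS-family partner of JUN, read 10.2, 9.55 and 9.81 and then 11.41, 11.05 and 10.6. ATF3, a stress-induced partner, read 9.37, 8.42 and 8.29 and then 10.45, 10.5 and 9.91, and CREB5, which dimerises with JUN, read 4.31, 4.65 and 4.26 and then 5.52, 5.75 and 6.34. FOSL1, ATF3 and CREB5 rose by 1.17, 1.59 and 1.47, but only CREB5 and JUN of the 4 were called without the block, where FOSL1 had an adjusted p of 0.119 and ATF3 one of 0.216. The other CREB5 probe sets, all of low signal, had mean differences of 0.24, -0.16 and 0.01, so its rise rests on the tested set. MAFF, FOSL2, MAFG and FOSB were the other members called higher.

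Of 17 genes of the JNK cascade, from MAP3 kinases to scaffolds, 0 rose and 1 fell, which is close to the 4.84% of all genes called in either direction. The member that fell was MAP3K1, by 0.41 (from 9.9, 9.97 and 9.9 to 9.38, 9.5 and 9.67). The JNK kinases MAPK8 and MAPK9 had changes of 0.02 and -0.16 (adjusted p of 0.938 and 0.29), and MAPK8 turned to -0.00139 without the pair numbered 3. The 4 other MAPK8 probe sets had mean differences of 0.10 to 0.24.

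MAP kinase phosphatases, which remove the activating phosphates from JNK, p38 and ERK, were the list with the largest share of calls. Of 12 measured members 8 rose and 1, DUSP9, fell (change -0.30). Of the 10 members not singled out before 6 rose. DUSP10 read 6.6, 6.45 and 7.02 untagged and 7.95, 7.8 and 8.24 with Tet, and DUSP1 7.57, 7.61 and 7.76 and then 9.08, 9.0 and 8.75. For DUSP10 and DUSP1 the groups do not overlap. DUSP5, a nuclear ERK phosphatase, started from unequal levels of 7.73, 6.85 and 6.24 and rose in each pair, by 1.83, 1.73 and 1.23, with overlapping groups and an adjusted p of 0.0941 without the block. DUSP8, which acts on JNK and p38, rose by 0.78, and DUSP14 (0.46), DUSP16 (0.42), DUSP7 (0.46) and DUSP4 (0.41) were called higher as well. Without the block 4 of the members were called.

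Known AP-1 targets were called in 1 direction. Of 23 measured targets 12 rose and 0 fell, with a median of 0.51. Part of this list was chosen for its response here, and of its 14 members not singled out before 4 rose. The scaffold AKAP12 read 10.19, 9.56 and 9.42 untagged and 12.46, 12.34 and 11.31 with Tet. The hyaluronan receptor CD44 read 10.21, 10.16 and 9.62 and then 11.63, 11.46 and 10.66, and the zinc finger factor KLF6 11.09, 10.64 and 10.64 and then 12.3, 12.1 and 11.55. Each of the 3 had groups that do not overlap. The EGF receptor ligands HBEGF and EREG and the cytokines LIF and IL11 were the members called higher that had not been singled out before. EREG showed the widest spread between pairs of these 4, with differences of 2.48, 4.72 and 1.48.

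Promoter windows were searched for the letters of an AP-1 site. The heptamer TGANTCA, which reads the same on both strands, occurs in 5.83% of 15382 RefSeq promoter windows of tested genes (250 bases before to 50 after the gene start, GRCh38.p14). Where RefSeq lists several starts for a gene, only the window listed first was searched. The heptamer was found in 11 of 59 windows of genes that rose at least 2-fold (18.6%), in 15 of 138 that rose 1.5-fold to 2-fold (10.9%) and in 13 of 308 with smaller rises (4.22%). Among genes that fell at least 2-fold it was found in 4 of 27 (14.8%), so the share was above that of all windows on each side of the response. For all rises together it was 7.72% and for all falls 5.43%. The letters of an interferon response element, taken as a pair of TTTC stretches 2 bases apart on either strand, stood in 2.95% of all windows, 3.37% of rises and 5.8% of falls. The cyclic AMP response element TGACGTCA, which also reads the same on both strands, stood in 2.67% of all, 4.16% of rises and 1.45% of falls. For the 5 rising genes with the smallest p that hold the heptamer upstream of the start, stretches of 62 to 101 bases around the copy nearest the start are shown, with the motif in capitals, 5′ to 3′ on the strand of the gene (RefSeq, GRCh38.p14). CPA4 lies at chr7:130293099-130293160 on the plus strand, S100A2 at chr1:153565845-153565943 on the minus strand, CAPN2 at chr1:223701407-223701507 on the plus strand, SERPINB8 at chr18:63970006-63970080 on the plus strand and PRSS3 at chr9:33795341-33795441 on the plus strand.
CPA4: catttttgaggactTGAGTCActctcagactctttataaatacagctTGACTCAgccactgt
S100A2: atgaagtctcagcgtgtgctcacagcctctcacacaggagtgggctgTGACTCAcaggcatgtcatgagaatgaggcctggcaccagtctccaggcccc
CAPN2: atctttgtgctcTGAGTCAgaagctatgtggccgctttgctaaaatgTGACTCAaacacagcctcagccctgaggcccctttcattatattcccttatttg
SERPINB8: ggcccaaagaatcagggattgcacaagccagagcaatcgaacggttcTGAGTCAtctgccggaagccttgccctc
PRSS3: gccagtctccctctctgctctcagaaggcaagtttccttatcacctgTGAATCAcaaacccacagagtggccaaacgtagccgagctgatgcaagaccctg
In CPA4, a secreted carboxypeptidase, the nearer copy begins 15 bases before the start, and a second copy stands within the same stretch. CPA4 read 5.68, 5.88 and 6.08 untagged and 10.92, 10.82 and 10.33 with Tet. S100A2, a calcium-binding protein for which another listed start has no heptamer upstream, read 9.59, 9.46 and 10.02 and then 11.84, 11.98 and 11.67. SERPINB8, a serpin protease inhibitor whose window holds 2 copies upstream, only 1 of them in the stretch shown, rose by 1.19 and PRSS3, a trypsinogen, by 1.39. A match of letters is a description, not a bound site.

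Growth factor signalling and immediate early genes rose in part. Of 17 immediate early factors 5 rose. MYC read 11.8, 11.87 and 11.85 untagged and 12.4, 12.45 and 12.25 with Tet, the stress-induced survival gene IER3 12.09, 11.68 and 11.84 and then 12.72, 12.61 and 12.25, and the clock and hypoxia repressor BHLHE40 8.44, 8.43 and 8.42 and then 9.22, 9.13 and 8.68. MYC and BHLHE40 had nearly equal untagged arrays, and the pair 3 difference was the smallest for each of the 3 genes. IER2 rose by 0.41. Of these 4 only MYC was called without the block. Of 17 ERK feedback and EGF receptor genes 5 rose and 0 fell. The receptor EGFR read 9.19, 9.47 and 9.26 untagged and 9.88, 10.21 and 9.76 with Tet (change 0.64, SE 0.10). Its inhibitor ERRFI1 rose by 0.75, the ephrin receptor EPHA2 by 0.36 and the ETS factor ETV5 by 0.54. None of the 5 was called without the block.

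CDKN1A was the only CDK inhibitor called among 7 measured. It read 10.67, 9.86 and 9.77 untagged and 11.24, 10.61 and 10.32 with Tet, so the groups overlap, with the untagged array 1 high, while each pair moved up, by 0.57, 0.74 and 0.55. The change of 0.62 (SE 0.09) had an adjusted p of 0.00255 with the block and 0.548 without it. The tested probe set of CDKN2B had a low signal, 5.01, 5.32 and 5.18 untagged and 5.07, 5.39 and 5.36 with Tet, and its change of 0.10 did not pass (adjusted p = 0.687). A second CDKN2B probe set of similar signal was higher with Tet in all 3 pairs, by 0.10, 0.90 and 1.39 (mean 0.80). It was not tested, so the probe sets of this gene give different sizes of change. Of 20 further p53 targets 5 rose and 1 fell. They were the growth arrest gene GADD45A (0.58), the BH3-only gene PMAIP1 (0.60), PLK3 (0.76), SESN2 (0.59) and PLK2 (0.67), with SESN1 lower (-0.41). The list's median was 0.09.

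Cell cycle genes were not called. Of 30 genes of G1/S and DNA replication 0 were called, and of 30 G2/M and mitosis genes also 0, by limma in the paired fit and in the fit without the block. In the G2/M list 20 of 30 were lower in all 3 pairs and 0 were higher in all 3, with a median of -0.14 (Y330H median -0.06). The kinesin KIF20A read 10.98, 11.04 and 10.86 untagged and 10.53, 10.65 and 10.72 with Tet (adjusted p = 0.0718), and TOP2A, which unlinks DNA, read 12.47, 12.45 and 12.48 and then 12.13, 12.19 and 12.37 (adjusted p = 0.0851). In the G1/S list the E cyclins had changes of opposite sign: CCNE1 had a change of 0.27 and CCNE2 one of -0.31, neither past the test.

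Part of the integrated stress response rose, while the calls among ER folding genes were falls. The response slows translation under stress, and its transcription factor ATF4 raises genes of amino acid supply. Of 30 measured members 9 rose and 0 fell, with 17 higher in all 3 pairs and a median of 0.29. Of 28 not singled out before 7 rose. SLC3A2 read 9.58, 9.92 and 9.95 untagged and 10.09, 10.65 and 10.39 with Tet. CHAC1, which degrades glutathione, read 9.28, 8.47 and 8.7 and then 9.69, 9.92 and 9.68, and its pair 1 difference was the smallest. The pseudokinase TRIB3 rose by 0.36 and the stress sensor SESN2 by 0.59. None of the 9 was called without the block. The stress-induced cytokine GDF15 rose by 0.88, from 10.73, 10.4 and 10.44 to 11.34, 11.76 and 11.11. Transfer RNA charging is under the same control, and of 17 cytosolic tRNA synthetases 2 rose, SARS1 by 0.42 and YARS1 by 0.30, with 9 higher in all 3 pairs. By contrast, of 21 genes of the unfolded protein response 0 rose and 3 fell. They were CRELD2, the disulfide isomerase PDIA4 (by 0.37) and the calcium-binding chaperone CALR (by 0.34), with 11 members lower in all 3 pairs.

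A majority of the sterol synthesis genes fell. Of 19 measured genes of cholesterol biosynthesis and its control 10 fell and 0 rose, and 17 were lower in all 3 pairs, with a median of -0.33. Of 17 not singled out before 8 fell. HMGCS1, a synthase of HMG-CoA, read 12.02, 11.97 and 12.15 untagged and 11.13, 11.12 and 11.9 with Tet. INSIG1, the sterol-sensing retention protein, read 12.22, 12.11 and 12.18 and then 11.54, 11.32 and 11.89. TM7SF2, a sterol reductase, read 9.19, 9.96 and 9.77 and then 8.23, 8.77 and 9.09, and IDI1, an isomerase, 12.76, 12.77 and 12.77 and then 12.04, 12.08 and 12.48. For HMGCS1, INSIG1 and IDI1 the groups do not overlap, and the pair 3 difference was the smallest. SC5D, STARD4, MSMO1, HSD17B7, DHCR7 and LSS also fell, and without the block 2 of the genes were called. Of 14 fatty acid synthesis genes 0 were called. The desaturase SCD had a change of -0.29 (adjusted p = 0.0708) and the acetate-activating enzyme ACSS2 one of -0.33 (adjusted p = 0.0628), and the list's median was -0.14. The NADPH-producing enzyme IDH1 fell by 0.66, from 11.65, 11.66 and 11.69 to 10.83, 10.71 and 11.47. It was the only call in a list of 18 TCA cycle genes, a share near the 4.84% of all genes called.

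Interferon-stimulated genes were called in the downward direction only. Of 33 interferon-stimulated genes 8 fell and 0 rose, and 18 were lower in all 3 pairs. CMPK2, an antiviral nucleotide kinase, read 9.36, 8.58 and 8.19 untagged and 8.0, 7.2 and 7.85 with Tet, and IFIT1, which binds viral RNA, read 7.38, 6.58 and 6.36 and then 5.65, 5.56 and 5.91. TLR3, the endosomal receptor of double-stranded RNA, read 8.17, 7.54 and 7.77 and then 5.99, 6.47 and 7.33. In each of these 3 the pair 3 difference was the smallest. OAS3 fell by 0.57, and TLR3 was the only member called without the block. Of 17 genes of class I antigen presentation 4 fell and 1, ERAP1, was called higher. The inducible proteasome subunit PSMB9 fell by 0.77, from 10.98, 10.8 and 10.24 to 10.36, 9.64 and 9.69. ERAP2, a peptide-trimming enzyme of the ER, fell by 0.98. The tested probe set of its relative ERAP1 rose by 0.45, but the next brightest ERAP1 set differed by -0.57, -0.47 and 0.15, so the probe sets disagree and no direction is given for ERAP1.

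Calls among Wnt and BMP genes were mostly falls. Of 21 Wnt targets, antagonists and stem cell markers 7 fell, and the 1 that rose was CD44. The stem cell factor ASCL2 read 8.46, 10.87 and 11.24 untagged and 7.15, 8.11 and 10.41 with Tet, falling by 1.63 from unequal base levels. The Wnt inhibitor APCDD1 read 7.32, 8.39 and 6.65 and then 5.66, 6.2 and 5.85, and the Wnt target SP5 8.12, 8.47 and 8.21 and then 7.43, 7.35 and 7.88. AXIN2 (-0.58), the pseudoreceptor BAMBI (-0.77), TNFRSF19 (-0.96) and PROM1 (-0.56) were the other falls. Of 21 TGF-beta and BMP genes 5 fell and 2 rose. BMP4 read 11.91, 12.08 and 11.86 untagged and 10.94, 11.25 and 11.62 with Tet. The inhibitor SMAD6 fell by 0.75 and the BMP targets ID1 and ID3 changed by -0.56 and -0.36. The BMP antagonist NOG rose (0.87), and the type II receptor of TGF-beta, TGFBR2, rose by 0.56, from 9.23, 8.91 and 8.77 to 9.64, 9.51 and 9.43. Of 18 Notch genes LFNG fell, as did the coactivator MAML2 (by 0.93). Of these Wnt, BMP and Notch genes with printed levels, ASCL2, APCDD1 and TGFBR2 were not called without the block (adjusted p of 0.295, 0.34 and 0.0664).

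Calls among adhesion and actin genes were mostly rises. Of 29 actin regulators and LIM proteins 10 rose and 1, the calponin CNN2, fell (-0.36). Of 25 members not singled out before 6 rose. FHL2, a LIM-only cofactor, read 9.03, 9.07 and 8.96 untagged and 10.23, 10.32 and 10.03 with Tet, with differences of 1.2, 1.24 and 1.07. The actin-binding protein CORO2B read 4.92, 4.86 and 4.81 and then 6.62, 6.46 and 6.04, and the actin oxidase MICAL2 8.8, 8.56 and 8.57 and then 10.09, 10.24 and 9.63. Annexin A1 (ANXA1), a membrane-binding protein, rose by 1.17. Of 12 integrins ITGA6 (0.52), ITGA2 (0.77) and ITGA3 (0.54) rose, all of them alpha chains of matrix receptors, and their laminin ligand chains LAMB3 (0.82) and LAMC1 (0.45) rose while LAMA5 fell by 0.47. Of 19 YAP/TEAD targets 5 rose, among them the ectonucleotidase NT5E (1.52), the receptor kinase AXL (0.72) and the matrix protein CCN1 (0.71). Of 12 keratins KRT80, KRT19 (0.70), KRT20 (1.5) and KRT15 (1.36) rose and 0 fell. KRT20 rose far less in pair 3, with differences of 1.93, 2.07 and 0.49. HMGA2, a chromatin protein of embryonic tissue, rose by 1.25, TNFRSF12A, the receptor of TWEAK, by 0.99 and the repressor SNAI1 by 0.55, the 3 called of 14 mesenchymal state genes.

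Inflammatory genes rose in a few members. Of 20 NF-kB targets 5 rose and 0 fell, and the median was 0.04. IL32 read 6.74, 7.51 and 9.51 untagged and 8.55, 8.62 and 10.44 with Tet, a rise of 1.28 on a base that differed between numbers by more than that. CFLAR, an inhibitor of caspase-8, rose by 0.43, NFKB2 by 0.73 and the feedback inhibitor TNFAIP3 by 0.54. A dimmer TNFAIP3 probe set differed by -0.36, 0.41 and -0.21, and a dimmer NFKB2 set by 0.36, 0.73 and -0.13. Neither moved 1 way in all 3 pairs. IL18, a cytokine of epithelia, read 8.12, 7.39 and 7.48 and then 9.6, 9.14 and 8.98 and was called without the block as well. IL18 and GDF15 were the only calls among 22 cytokines, interleukins and chemokines, and that list's median was -0.06. Of 20 hypoxia genes NDRG1 (1.13), EPAS1 (0.40) and CA12 (0.71) rose and BNIP3L fell by 0.33. Of 21 NRF2 targets 2 rose and 2 fell: the thioredoxin reductase TXNRD1 rose by 0.33 and SRXN1 by 0.36, and PIR fell by 1.3 and AKR1C3 by 0.56. The autophagy protein MAP1LC3B rose by 0.74, from 10.28, 10.2 and 10.13 to 11.01, 11.16 and 10.67, as 1 of 23. PPARG, a nuclear receptor of lipid metabolism, rose by 0.85, the only call among 18 beta-oxidation and PPAR target genes. That share is near the 4.84% of all genes called. The list's median was -0.13, with 4 members higher and 8 lower in all 3 pairs.

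Several intestinal genes fell from base levels that differed sharply between the numbered pairs. TSPAN8, a tetraspanin of secretory epithelium, read 4.9, 6.24 and 10.06 in untagged arrays 1, 2 and 3 and 4.66, 4.17 and 9.15 with Tet. AGR2, a disulfide isomerase of mucus-producing cells, read 5.13, 5.09 and 8.84 and then 4.62, 4.89 and 8.06, and VIL1, the brush border actin bundler villin, 5.98, 6.4 and 9.0 and then 5.43, 5.47 and 8.32. Pair 3 was the high one in all 3 genes, and each pair moved down. The pore-forming claudin CLDN2 read 7.69, 9.66 and 10.7 and then 6.41, 7.36 and 9.81. In bulk RNA, fewer cells of a type and less RNA per cell cannot be told apart. The falls were 1.07 for TSPAN8, 0.49 for AGR2, 0.72 for VIL1 and 1.49 for CLDN2, and without the block their adjusted p were 0.808, 0.91, 0.81 and 0.419. The intestinal master regulator CDX2 fell by 0.47 and the junction protein TJP3 by 0.81. Of 25 enterocyte markers 3 fell and 1, KRT20, rose, and of 22 goblet and secretory markers 2 fell and 12 were lower in all 3 pairs. Over the whole response, 286 of 957 called genes had Tet and untagged levels that overlap, and 19 had untagged arrays at least 4-fold apart. Groups that do not overlap were seen for 6.41% of all genes upward and 7.46% downward, and for 449 of 620 called rises and 222 of 337 called falls.

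**Figure D2:**
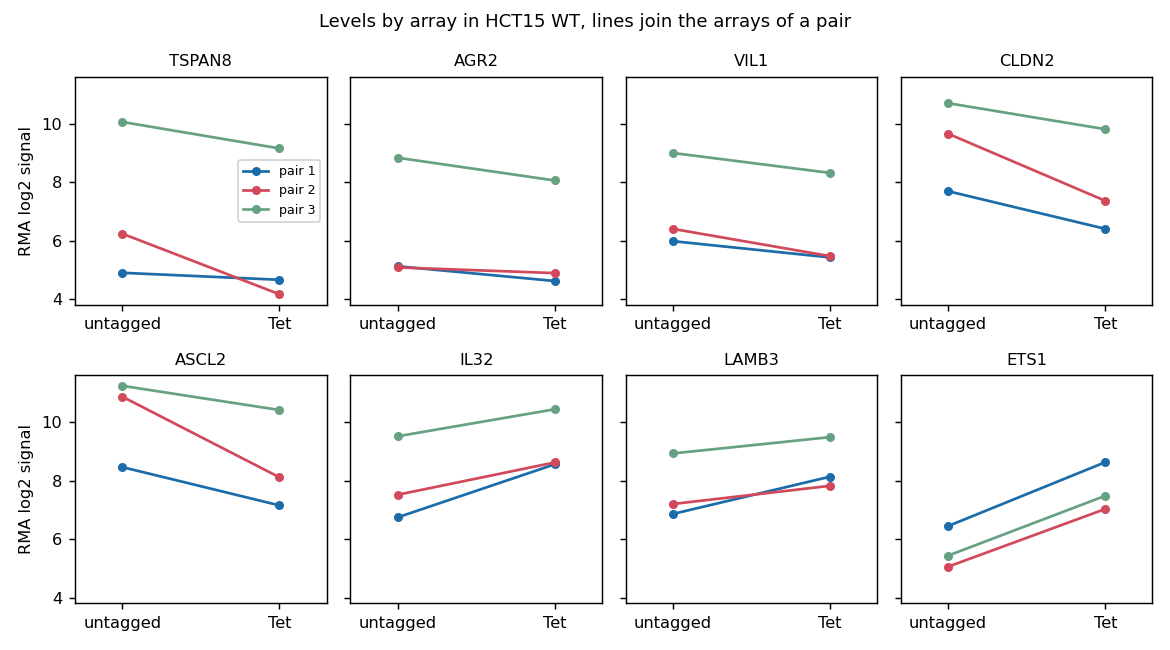
RMA log2 signal of 8 genes on the 6 HCT15 WT arrays, each line joining the untagged and Tet array of a pair; the genes were chosen after their values were seen, for unequal base levels. The pair 3 line lies above the others for TSPAN8, AGR2 and VIL1, while all 3 lines slope the same way for each gene.

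Core metabolic and housekeeping lists held few or no calls. Among 27 proteasome subunits, 25 ribosomal proteins, 27 oxidative phosphorylation genes, 24 splicing factors, 19 one-carbon and nucleotide genes, 13 histones and 14 heat shock genes 0 were called in the paired fit or without the block. Of the oxidative phosphorylation genes 17 were lower in all 3 pairs, with a median of only -0.07. Of 33 mitochondrial ribosomal proteins MRPS10 rose (0.33). Nucleolar ribosome biogenesis held 4 rises among 27 (DDX10 by 0.43, RRP12 by 0.41, BYSL by 0.34 and NOP14 by 0.33), with 15 higher and 0 lower in all 3 pairs. Of 21 glycolysis genes PFKP and HK1 rose by 0.36 and 0.32, and the glucose transporter SLC2A3 fell by 0.70. Of 24 glutathione and xenobiotic enzymes ALDH3A1, GSTK1 and MGST2 fell.

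Other probe sets of the same genes moved with those tested. The tests used the brightest set of a gene, which left 861 further probe sets for 391 of the rising genes and 425 for 202 of the falling ones. Of these, 577 (67.0%) rose in all 3 pairs and 272 (64.0%) fell in all 3, against 18.6% and 15.3% of 20030 further probe sets of genes that were not called. Among those brighter than the median gene the shares were 88% and 81.5%, and 1 and 3 moved the opposite way in all 3 pairs. They share the RNA of the same 6 arrays, so they bear on probe effects and not on biological replication.

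Inducing the mutant form Y330H in HCT15 called 0 genes in the same paired fit by limma (0.0%), with 1153 (5.83%) at an unadjusted p under 0.05, and 0 in each of 11 alternatives that hold its arrays. With Y330H the median change was 0.03 over the 620 WT rises and -0.02 over the 337 WT falls. The difference between the inductions was tested directly. It was larger with WT for 133 genes (0.673%) and smaller for 56 (0.283%), and 132 and 55 of these were rises and falls with WT. By size, 59 of 76 rises of at least 2-fold, 50 of 163 between 1.5-fold and 2-fold and 23 of 381 smaller ones differed from Y330H. For the falls these counts were 23 of 34, 26 of 91 and 6 of 212. Most modest changes were thus called against their own untagged pairs and not against the mutant form. The test of the difference seldom calls changes of that size. On simulated data it called 2% of 1.25-fold, 24% of 1.5-fold and 66% of 2-fold changes, against 20%, 62% and 92% for the WT induction. The simulated noise was independent between genes and held no shift with level, so these shares need not hold for the real arrays. Whether a modest change not called here differs from Y330H is thus not decided. The difference of -1.86 for TMT1A, a methyltransferase-like protein, was the most negative among the named genes, and TMT1A itself read 10.17, 10.42 and 10.28 untagged and 7.77, 8.44 and 9.28 with Tet. The other TMT1A probe sets, of lower signal, had mean differences with WT of -0.38, -0.12 and -0.225. The size of its fall thus rests on the tested set. JUN differed by 0.94 (SE 0.16, adjusted p = 0.0202) and CDKN1A by 0.72 (SE 0.13, adjusted p = 0.0242). The 189 genes became 12 without the block, 9 with the 12 HCT15 arrays alone, and 12, 14 and 177 without the pairs of both forms numbered 1, 2 and 3.

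**Figure D3:**
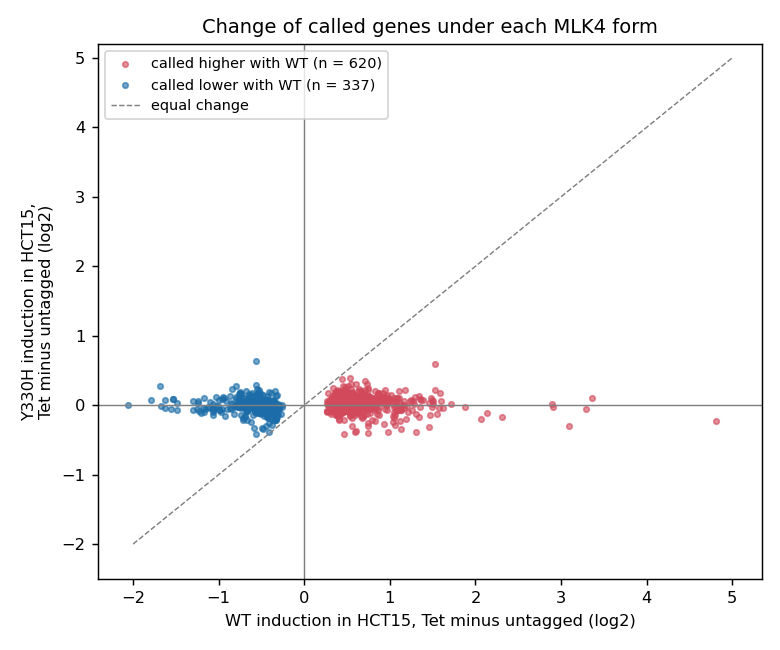
Mean Tet minus untagged change (log2, 3 pairs each) of the 957 genes called with wild-type MLK4 in HCT15, with WT on the horizontal and Y330H on the vertical axis; the dashed line marks equal change. The points spread along the WT axis and stay near 0 on the Y330H axis, with medians of 0.03 for rises and -0.02 for falls.

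In HT115, whose changes come from other arrays although the fit shares 1 estimate of the spread, few of the genes were called. Of the 620 genes 69 were called higher when WT was induced there and 0 lower, against 0.753% of all genes called higher, and their median change was 0.19. Of the 337 genes that fell, 2 were called lower and 1 higher, against 0.187% of all genes called lower, with a median of -0.07. Among named genes that rose in both lines were AKAP12 (1.91 in HT115), ATF3 (1.55), CREB5 (1.53), DUSP10 (1.23), KRT80 (1.09), ANXA1 (1.04) and TRIB1 (0.81). JUN had a change of 0.32 there (adjusted p = 0.254) and CPA4 one of 0.28 (adjusted p = 0.754). Of the sterol genes, IDI1 had a change of -0.25 and HMGCS1 one of -0.16, neither past the test (adjusted p of 0.251 and 0.563). The difference between the lines was not tested.

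The third pair carried a shift that depends on level. Its median Tet minus untagged difference was -0.18 for genes below a mean level of 5 and -0.23 for those between 5 and 7, but 0.07 for genes between 7 and 9 and 0.07 for those between 9 and 11. In pairs 1 and 2 these medians stayed between -0.06 and 0.03. The Y330H pair numbered 3 showed the same form, from -0.16 between 5 and 7 to 0.09 between 7 and 9. Quantile normalisation of the arrays left -0.16 between levels 5 and 7 in the WT pair 3 and kept 894 of the 957 calls. The split of calls was 64.8% higher in the deposited values, 55.6% after quantile normalisation and 71.4% after subtracting array medians.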

How the data were processed

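The 24 RNA samples were each measured on 1 Affymetrix U133 Plus 2.0 array. Per the submitters' processing notes the authors ran RMA from Affymetrix Power Tools, and each deposited number is a log2 signal of 1 probe set. Versions, detection calls and the arrays normalized together are not given in the sources used here. Of 54675 probe sets 62 controls were left out and 41091 carried a single gene symbol in GEO's annotation of the platform. The brightest probe set over all arrays stood for each of 19775 genes, of which 19735 were found in the RefSeq gene table (GRCh38.p14). All 24 arrays entered 1 limma 3.58.1 fit in R 4.3.3 with 4 induction effects and 12 pairs as blocks (8 residual and 4.05 prior degrees of freedom, eBayes without trend), and p-values were adjusted by Benjamini-Hochberg over all genes. Every adjusted p printed is from limma. The repeat numbers of the labels and the correlation of same-numbered HCT15 arrays gave the pairing (r from 0.310 to 0.767 in its 6 pairs). HT115 numbers were blocked in the same fit, although the 3 HT115 WT pairs reached only -0.00453 to 0.226.

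The samples, genes and lists were chosen with earlier results of these data known, and 57 gene lists were described by counts and medians only, of which 1 is not reported here. Genes were named by rule: 6 of the study's pathway (MAP3K21, JUN, CDKN1A, CDKN2B, MAPK8 and MAPK9), the 6 with the smallest p in each direction and size range, up to 4 called members of each list (or up to 2 with the smallest p), and the 6 with the smallest p in each direction of the difference from Y330H. Members named beyond this were chosen after their values were seen. On simulated data with 50 genes changed per fold among 19775, the fit of the HCT15 WT induction recovered 20% of the 1.25-fold, 62% of the 1.5-fold, 92% of the 2-fold and 100% of the 4-fold changes, with 5 false calls among 142. The simulated noise was independent between genes, and fewer genes were changed than were called in the real data. These rates therefore need not hold for the real arrays. The number of arrays limits the precision. Alternatives changed the block, the arrays fitted, weights, scaling, the probe set rule, the filter on dim genes and the variance model, and left out pairs. Quantile normalisation was added after seeing the data.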

Additional observations from a re-analysis of the deposited data

Results flagged for a closer look

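Named genes are given here when the test of WT minus Y330H passed at an adjusted p under 0.05 in the paired limma fit, that is, when the change differed between the 2 inductions in HCT15. Each value is the difference of the log2 changes, positive where the change was larger with WT. In the AP-1 and phosphatase groups it was 0.94 for JUN, 0.95 for FOSL1, 1.42 for ATF3, 1.61 for CREB5, 1.43 for DUSP10, 1.53 for DUSP5, 1.18 for DUSP1 and 0.68 for DUSP8. Among AP-1 targets and other transcription factors it was 2.26 for ETS1, 2.48 for AKAP12, 1.21 for KLF6, 1.18 for CD44, 2.26 for S100A2, 0.64 for KLF9, 1.35 for BHLHE41, 0.98 for PPARG and 1.32 for HMGA2.

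In the cytoskeleton, adhesion and keratin groups the difference was 1.21 for FHL2, 1.45 for CORO2B, 1.21 for MICAL2, 1.16 for ANXA1, 0.77 for RHOC, 0.95 for ARHGAP29, 0.76 for CCN1, 1.3 for NT5E, 0.57 for ITGA6, 1.27 for KRT80, 0.70 for KRT19, 3.34 for KRTAP3-1 and 1.29 for EMP1. Among signalling, stress and arrest genes it was 0.72 for CDKN1A, 0.66 for GADD45A, 0.77 for TRIB1, 0.68 for MAPKAPK3, 0.75 for TGFBR2, 0.92 for TNFRSF12A, 0.57 for SLC3A2, 1.2 for NDRG1, 0.77 for MAP1LC3B, 1.62 for IL18 and 1.26 for IL32. For the remaining rises it was 5.04 for CPA4, 0.82 for CAPN2, 0.87 for TNFAIP1, 0.80 for LIPH, 0.81 for UACA, 0.62 for PROCR, 0.66 for MB21D2 and 0.49 for ASB1.

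Negative differences were found among intestinal, Wnt and BMP genes, with -0.76 for VIL1, -1.51 for CLDN2, -0.80 for TJP3, -1.71 for ASCL2, -1.5 for APCDD1, -0.94 for SMAD6 and -0.59 for LFNG. Metabolic and ER genes gave -1.06 for TM7SF2, -1.04 for ALDH3A1, -1.2 for AKR1C3, -1.36 for PIR, -0.80 for GYG2 and -0.50 for CRELD2. The other falls gave -1.22 for PRR15L, -1.62 for CDH7, -1.62 for TNNC1, -0.92 for MB, -1.14 for GRHL3, -1.08 for CADM1, -1.06 for HCFC1R1, -0.87 for PLLP, -1.0 for TNS2, -0.77 for SECTM1 and -1.86 for TMT1A. AKR1C3 had a change of -0.56 with WT and 0.64 with Y330H, so that the mutant arrays contributed about as much to its difference as the WT arrays. Groups held 3 arrays, too few for a search for single arrays far from the rest.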

How the results depend on the processing

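Called rises, called falls and modest changes (620, 337 and 847) were recounted under 12 alternatives. The counts were 121, 17 and 82 with no replicate block, 343, 150 and 396 with the 12 HCT15 arrays alone, 14, 2 and 1 with the 6 HCT15 WT arrays alone, 1362, 1079 and 2122 with arrayWeights, 937, 537 and 1388 for the brighter genes only, and 985, 576 and 1440 with eBayes trend and robust. Leaving out 1 pair gave 150 to 507, 59 to 394 and 135 to 750. Subtracted array medians, the mean of a gene's probe sets and quantile normalisation kept the 3 counts within 1.5 times. The 189 genes that differed from Y330H became 12 with no replicate block, 9 with the 12 HCT15 arrays, 630 with arrayWeights, 359 for the brighter genes, 419 with trend and robust, and 12 to 177 without a pair. The causes of these moves were not tested. No alternative called a gene with Y330H. By the mean of probe sets 956 of the 957 called genes kept their direction, and in the other alternatives all that were tested did. Only the alternatives that change the values (array medians, mean of probe sets, quantile normalisation) could have turned a called gene. The rest average the same pair differences. Leaving out the 6-array fit, 72 of 620 rises and 8 of 337 falls were called in every alternative that tested them. Of 151 called genes among the 179 named, 0 changed sign, under the same limit. Uncalled genes that did were H2AX (0.0157 by the mean of its probe sets), RPL18 (-0.0281 by that mean), RPLP1 (-0.00273 to 0.143 without 1 pair) and MAPK8 (-0.00139 to 0.0343 without 1 pair). The median of the JNK cascade, glycolysis, junction and one-carbon lists changed sign with the scaling, so no direction is given for them. With 3 pairs, the fit called 20% of simulated 1.25-fold changes in the HCT15 WT induction.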

Other observations

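Called genes that lie next to each other on a chromosome, in the order of tested genes in the RefSeq table, formed 58 runs with 1 direction (37 higher and 21 lower) and 121 genes, of which 5 runs held 3 genes. The S100 genes of calcium-binding proteins gave 2 of these, S100A2 with S100A16 and S100A14, and S100A10 with S100A11 and the hair follicle gene TCHH. S100A16 rose by 0.83, S100A14 by 0.60, S100A10 by 0.75 and S100A11 by 0.66. The hair keratin-associated genes KRTAP3-2, KRTAP3-1 and KRTAP1-5 formed another, in which near-identical members can share probe signal, and the neighbours KRT15 and KRT19 rose together. FOSL1 stood beside C11orf68 and DRAP1, which rose by 0.83 and 0.85. The interferon-induced neighbours OAS1 and OAS3 fell together. These runs were looked for after the responses were known, and no test was made of how many would be found among unrelated genes.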
